A study of Mus musculus with 12 samples.

Results

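Bco1, Bco2, Rbp2, Scarb1, Aldh1a1, Adh1 and Adh7 encode proteins that take up and cleave carotenoids and carry and oxidise the retinoids made from them. Their messenger RNA was measured in mucosa scraped from the ileum, the last stretch of the small intestine, of male C57BL/6 mice aged 6 to 8 weeks. The members were taken by symbol: every probe set of the array that the platform annotation gave to exactly 1 of these symbols, which was 10 probe sets for 7 of 12393 genes. Scarb1 had 3 probe sets, Adh7 had 2 and each of the others had 1. Where a gene had several, the probe set with the highest mean over all arrays stood for it. These genes were picked with differences on these same arrays already known, among them that of Adh7 on quercetin in POR-null mice. The levels and differences of the 7 genes are therefore a description, and the p-values printed with them only set a difference against the spread between arrays.

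With 3 arrays for each of 4 groups there were 12 in all, and 3 mice were pooled for every array. Wild-type and POR-null mice, the latter null for cytochrome P450 reductase, the electron donor of the microsomal P450 enzymes, were kept for 14 days on a soya-free powdered RM3 diet and then received this diet alone (control) or with quercetin, a plant flavonol, at 6.2 g per kg (7 mg per mouse). Tissue was taken after 24 h. The labels do not name the tissue or the construct behind the reductase deletion. No probe set here carried Por as its only symbol, and those with several symbols were not searched for it. The genotype labels were therefore not checked against the targeted gene. The labels do not tie pools to cages or litters, so p-values measure the spread between these pools.

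Array medians lay between 5.91 and 5.96 on the log2 scale, and no pair of arrays held identical values. Of the defining ileal genes, Fabp6, the ileal bile acid binding protein, was high on all arrays, between 12.05 and 12.76. Slc10a2, the ileal bile acid transporter, varied from 5.22 to 7.52. It lay below the array medians on wild-type control replicate 2 (5.22) and wild-type quercetin replicate 1 (5.32). Wild-type control replicate 2 stood apart from the other arrays. Its score over 13 genes of the proximal small intestine was 0.78, against -0.41 to 0.28 on the other 11 arrays. A score is the mean of the genes' log2 levels after each was centred on its own mean. Fabp1 stood furthest above its mean (11.48 beside 9.05), and Slc40a1 was below (7.06 beside 7.45). The array's score of 8 ileal genes, -0.25, was the lowest, next to -0.21 on POR-null quercetin replicate 3. It came mainly from Slc10a2, at 5.22 beside a mean of 6.58, and Nr1h4, at 7.92 beside 8.40. Fabp6, Fgf15, Slc51a, Cubn and Amn lay close to their means on this array. Wild-type quercetin replicate 2 had a colon score (6 genes) of 0.71, against -0.20 to 0.17 on the others. That score came mainly from Car1, at 10.17 against 6.04 to 7.54 on the others, and Aqp8, at 6.63 against 4.86 to 5.38. Car4, Slc26a3 and Saa3 were below their own means on that array, and Hoxd10 was at 3.47 beside a mean of 3.40. Smooth muscle and stroma genes, 14 of 14 measured, had a score that ran from -0.61 to -0.18 in wild-type control, -0.57 to 0.31 in wild-type quercetin, -0.46 to 0.85 in POR-null control and 0.11 to 0.53 in POR-null quercetin. In a tissue scraping, fewer cells of a type and less RNA per cell cannot be told apart.

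Dietary carotenoids and retinyl esters are the sources of vitamin A. The scavenger receptor SCARB1 takes carotenoids into the enterocyte, where BCO1 cleaves beta-carotene centrally to retinal and the mitochondrial enzyme BCO2 cleaves carotenoids off centre. RBP2 binds retinol and retinal in the absorptive cell and directs them to reduction and esterification for export in chylomicrons. The alcohol dehydrogenases ADH1 and ADH7 can oxidise retinol to retinal, and ALDH1A1 oxidises retinal to retinoic acid, the ligand of the retinoic acid receptors.

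The promoter windows of 4 members are shown: Bco2, which had the largest difference, Bco1 and Rbp2, which share a motif, and Adh1, which like Rbp2 was highest on wild-type control replicate 2. RefSeq's promoter table for GRCm38.p6 held 8 entries for 6 of the 7 genes. Each sequence is the 250 bases before an annotated start, 5′ to 3′ on the gene's strand. Capitals mark, on either strand, TATAAA, the TATA box, and a partial direct repeat of the nuclear receptor half-site AGGTCA: the letters TCA, any base, then AGGTCA. The Bco1 window is chr8:117095615-117095864 (+), that of Rbp2 chr9:98490287-98490536 (+), that of Bco2, the first of its 2 entries, chr9:50555139-50555388 (-), and that of Adh1 chr3:138277335-138277584 (+).
Bco1: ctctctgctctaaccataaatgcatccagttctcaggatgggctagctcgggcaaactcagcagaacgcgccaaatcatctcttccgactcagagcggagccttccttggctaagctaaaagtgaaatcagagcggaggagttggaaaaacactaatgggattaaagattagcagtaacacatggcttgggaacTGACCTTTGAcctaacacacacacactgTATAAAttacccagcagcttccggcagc
Rbp2: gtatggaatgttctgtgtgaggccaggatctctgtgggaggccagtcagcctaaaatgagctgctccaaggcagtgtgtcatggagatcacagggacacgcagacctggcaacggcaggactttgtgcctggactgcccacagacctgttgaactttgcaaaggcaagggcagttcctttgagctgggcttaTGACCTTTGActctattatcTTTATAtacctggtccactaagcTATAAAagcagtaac
Bco2: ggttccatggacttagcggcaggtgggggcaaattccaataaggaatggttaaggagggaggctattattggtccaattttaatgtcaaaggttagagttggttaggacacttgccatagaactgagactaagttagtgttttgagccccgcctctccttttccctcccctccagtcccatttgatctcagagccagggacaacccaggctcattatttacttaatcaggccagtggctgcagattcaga
Adh1: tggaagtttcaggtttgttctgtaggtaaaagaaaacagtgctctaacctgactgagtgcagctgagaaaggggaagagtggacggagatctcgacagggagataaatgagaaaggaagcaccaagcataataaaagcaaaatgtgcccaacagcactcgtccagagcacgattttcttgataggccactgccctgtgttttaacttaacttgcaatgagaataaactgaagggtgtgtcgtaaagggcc

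The Bco1 and Rbp2 windows each held TGACCTTTGA, the partial repeat read on the opposite strand. It began 56 bases before the start in Bco1 and 58 in Rbp2. The partial repeat occurred on either strand in 0.377% of 32851 promoter entries of the same length, and in 2 of the 8 member entries. In Bco1 it extended to the complete repeat, AGGTCA, any base and AGGTCA, read on the opposite strand as TGACCTTTGACCT, which occurred in 11 of the 32851 entries. Such repeats are known as binding sequences of retinoid X receptor heterodimers and of HNF4. The half-site AGGTCA alone, which the longer motifs contain, was in 14.0% of entries, and among the members in those of Bco1 and Rbp2. TATAAA was in 12.4% of entries, and in Bco1 it began 28 bases before the start. The Bco2 and Adh1 windows shown had neither of the capitalised motifs, which says only that these letters are not there. The GATA-type motif AGATAA (9.99% of entries) was in the Adh1 and Rbp2 entries and in 1 of 2 for Aldh1a1, and the CDX-type motif TTTATTG (4.2%) was in none of the 8. The motifs were chosen after the sequences had been read, and a match is not evidence of binding.

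**Figure D1:**
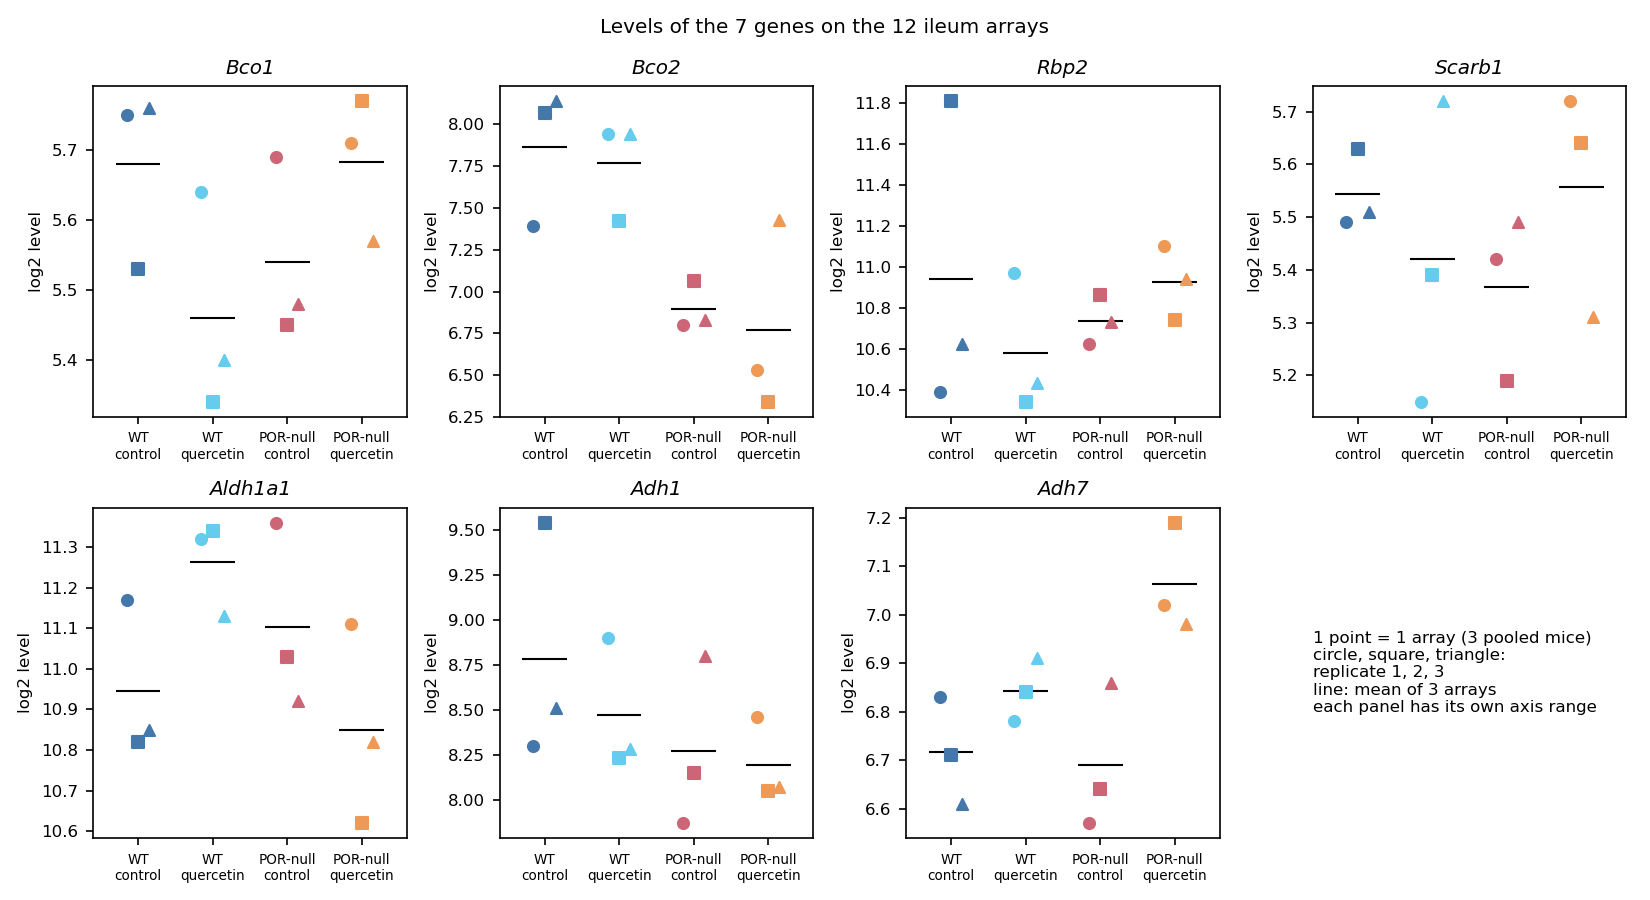
Log2 level (y axis, own range in each panel) of the 7 genes on each array by group; a point is 1 array of 3 pooled mice, its shape gives the replicate number and the line is the mean of 3 arrays. Bco2 lies at 7.39 to 8.14 on the 6 wild-type arrays and at 6.34 to 7.43 on the 6 POR-null arrays, and Rbp2 and Adh1 each have their highest point on wild-type control replicate 2.

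The largest difference among the 7 genes was in Bco2, which was lower in POR-null ileum on each diet. In wild-type control its log2 level was 7.39, 8.07 and 8.14, and in POR-null control it was 6.80, 7.06 and 6.83. In wild-type quercetin it was 7.94, 7.42 and 7.94, and in POR-null quercetin 6.53, 6.34 and 7.43. On the control diet all POR-null arrays lay under all wild-type arrays. On quercetin 2 of the 3 POR-null arrays did, and POR-null quercetin replicate 3, at 7.43, lay just above the lowest wild-type array. Over both diets 5 of 6 POR-null arrays lay under every wild-type array.

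The difference in Bco2, POR-null minus wild type, was -0.97 ± 0.25 on the control diet (log2, SE; 1.96-fold lower) and -1.0 ± 0.25 on quercetin (2.0-fold lower). Averaged over diets it was -0.98 ± 0.18, with a 95% interval from -1.37 to -0.60, and ranked 13th by p among 22626 probe sets. Limma, adjusting by Benjamini-Hochberg over all probe sets, gave adjusted p = 0.305, 0.409 and 0.13 for these, so none passed the threshold of 0.05. Without POR-null quercetin replicate 3, the POR-null array with the most Bco2, the averaged difference was -1.15 and passed (limma, adjusted p = 0.0453). Leaving out each of the other 11 arrays kept it between -1.10 and -0.88 without a call. Between diets, Bco2 on quercetin was at -0.10 ± 0.25 from control in wild-type mice and at -0.13 ± 0.25 in the POR-null, and the interaction was -0.03 ± 0.36 (95% interval from -0.80 to 0.74). The order of the group means was wild-type control (7.87 ± 0.41, SD, n = 3), wild-type quercetin (7.77 ± 0.30), POR-null control (6.90 ± 0.14) and POR-null quercetin (6.77 ± 0.58), in which the neighbours of one genotype differed by less than their SDs.

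The smooth muscle and stroma score was also higher in POR-null scrapings, as given above, and its part in the Bco2 difference was not tested. In POR-null control the scores were 0.85, -0.46 and 0.44 on the arrays with Bco2 at 6.80, 7.06 and 6.83, and in POR-null quercetin they were 0.23, 0.53 and 0.11 on those at 6.53, 6.34 and 7.43. In each POR-null group the array with the lowest score had the most Bco2. In wild-type control the array with the lowest score had the least Bco2, and in wild-type quercetin it shared the highest level with another array. In wild-type control the scores were -0.61, -0.22 and -0.18 on the arrays with Bco2 at 7.39, 8.07 and 8.14, and in wild-type quercetin they were -0.42, 0.31 and -0.57 on those at 7.94, 7.42 and 7.94. POR-null control replicate 2, at -0.46, lay within the wild-type range of the score and under all 6 wild-type arrays in Bco2. Wild-type quercetin replicate 2, at 0.31, lay within the POR-null range of the score, with Bco2 at 7.42, just under the highest POR-null array at 7.43. Single arrays of pooled mice cannot separate genotype from the cells in the scraping. Without wild-type control replicate 2, the array with the high proximal score, the averaged Bco2 difference was -0.93. Of the 10 measured genes nearest to Bco2 on its chromosome, 5 on each side, chosen after its values were seen, the averaged genotype difference ran from -0.44 to 0.03. The lowest was that of Il18, the cytokine gene next to Bco2, at -0.44 ± 0.14 (limma, adjusted p = 0.509).

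Bco1, the enzyme of central cleavage, had no genotype difference of the size seen in Bco2. It was at 5.75, 5.53 and 5.76 in wild-type control and 5.64, 5.34 and 5.40 in wild-type quercetin. In POR-null mice it was at 5.69, 5.45 and 5.48 on control and 5.71, 5.77 and 5.57 on quercetin. The ranges of neighbouring groups overlapped throughout, and the whole spread over 12 arrays was 0.43. The mean level of Bco1 over these arrays, 5.59, lay under the array medians of 5.91 to 5.96. Quercetin minus control was -0.22 ± 0.10 in wild type and 0.14 ± 0.10 in POR-null, and their difference, the interaction, was 0.36 ± 0.14 (limma, adjusted p = 0.438). The group means were 5.68 ± 0.13 (SD, n = 3) in wild-type control, 5.68 ± 0.10 in POR-null quercetin, 5.54 ± 0.13 in POR-null control and 5.46 ± 0.16 in wild-type quercetin, and neighbours in that order had overlapping ranges. Averaged over diets the genotypes differed by 0.04 ± 0.07, with a 95% interval from -0.11 to 0.19.

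Scarb1, the uptake receptor, was measured by 3 probe sets, none of which passed in any comparison. Its representative lay at 5.49, 5.63 and 5.51 in wild-type control, 5.15, 5.39 and 5.72 in wild-type quercetin, 5.42, 5.19 and 5.49 in POR-null control and 5.72, 5.64 and 5.31 in POR-null quercetin. All 4 ranges overlapped, and the group means lay between 5.37 ± 0.16 and 5.56 ± 0.22. The representative and a further probe set differed by -0.12 each for quercetin in wild type and by 0.19 and 0.14 in POR-null, and the remaining probe set differed by -0.23 and -0.07, so the probe sets did not share a sign in POR-null mice. Without wild-type quercetin replicate 1, the wild-type difference of the representative was 0.01. One of the additional probe sets was at 4.54 to 4.55 in wild-type control, above all arrays of wild-type quercetin (4.31 to 4.53) and of POR-null control (4.31 to 4.52). Those differences were -0.12 ± 0.08 and -0.16 ± 0.08. The means of the 3 probe sets over the 12 arrays were 5.47, 4.47 and 4.31, under the array medians of 5.91 to 5.96. They exceeded the means of 40.1%, 20.3% and 17.6% of all probe sets.

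Rbp2, the retinoid carrier of absorptive cells, had its highest level on the array with the highest proximal score. Its log2 level was 10.39, 11.81 and 10.62 in wild-type control, 10.97, 10.34 and 10.43 in wild-type quercetin, 10.62, 10.86 and 10.73 in POR-null control and 11.10, 10.74 and 10.94 in POR-null quercetin. Apart from the 11.81 of wild-type control replicate 2, all arrays lay between 10.34 and 11.10. The means were 10.94 ± 0.76 (SD, n = 3) in wild-type control, 10.93 ± 0.18 in POR-null quercetin, 10.74 ± 0.12 in POR-null control and 10.58 ± 0.34 in wild-type quercetin, and neighbours in that order had overlapping ranges. Quercetin minus control in wild type was -0.36 ± 0.28, but 0.08 without that array. POR-null minus wild type on control diet was -0.20 ± 0.28, but 0.23 without it. The interaction went from 0.55 ± 0.39 to 0.12. The signs of the first 2 therefore rested on a single array. On the quercetin diet, where that array takes no part in the difference, POR-null was 0.35 ± 0.28 above wild type (limma, adjusted p = 0.814).

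**Figure D2:**
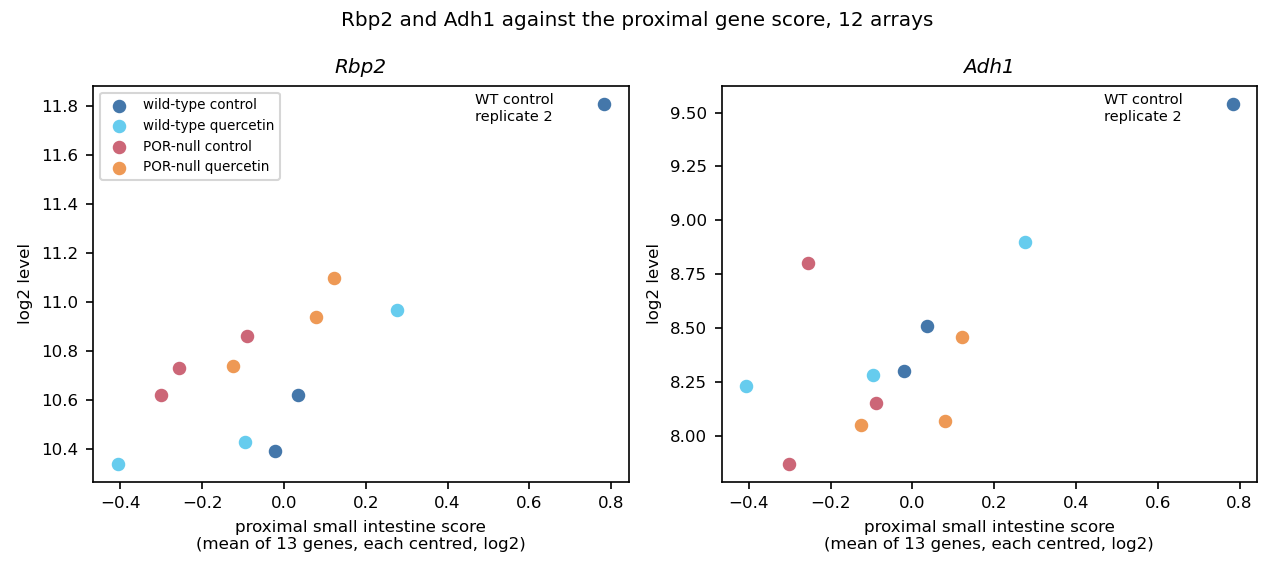
Log2 level of Rbp2 (left) and Adh1 (right) on each of the 12 arrays (y axis) against the score of 13 proximal small intestine genes (x axis, log2); colours give the group. Wild-type control replicate 2, with a score of 0.78, has the highest level of each gene, 11.81 and 9.54.

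Adh1, the class I alcohol dehydrogenase, was also highest on that array. It was at 8.30, 9.54 and 8.51 in wild-type control and 8.90, 8.23 and 8.28 in wild-type quercetin. In POR-null mice it was at 7.87, 8.15 and 8.80 on control and 8.46, 8.05 and 8.07 on quercetin. Ranges overlapped in each of the 4 comparisons between groups, although 4 of 6 POR-null arrays lay under every wild-type array. The means, in order, were 8.78 ± 0.66 (SD, n = 3) in wild-type control, 8.47 ± 0.37 in wild-type quercetin, 8.27 ± 0.48 in POR-null control and 8.19 ± 0.23 in POR-null quercetin, with neighbours within their SDs. POR-null minus wild type was -0.51 ± 0.30 on control (95% interval from -1.15 to 0.13), and -0.13 without wild-type control replicate 2. On quercetin it was -0.28 ± 0.30, and -0.06 without wild-type quercetin replicate 1. Quercetin minus control in wild type was -0.31 ± 0.30, and 0.07 without wild-type control replicate 2, so its sign rested on that array. Rbp2 and Adh1 had a Pearson r of 0.70 over the 12 arrays (Spearman rho of 0.35), and of 0.25 without wild-type control replicate 2. The part of tissue position along the intestine in these values was not tested.

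Adh7, the class IV alcohol dehydrogenase, which is efficient with retinol, was highest in POR-null mice on quercetin. Its representative probe set was at 6.57, 6.64 and 6.86 in POR-null control and 7.02, 7.19 and 6.98 in POR-null quercetin, so these groups did not overlap. In wild type it was at 6.83, 6.71 and 6.61 on control and 6.78, 6.84 and 6.91 on quercetin, which overlapped. All 3 POR-null quercetin arrays also lay above all 3 wild-type quercetin arrays. The means were 7.06 ± 0.11 (SD, n = 3) in POR-null quercetin, then 6.84 ± 0.07 in wild-type quercetin, 6.72 ± 0.11 in wild-type control and 6.69 ± 0.15 in POR-null control, of which the last 3 overlapped from each to the next.

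For this probe set of Adh7, quercetin minus control was 0.37 ± 0.09 in POR-null (1.3-fold), with a 95% interval from 0.18 to 0.57, and 0.13 ± 0.09 in wild type. The interaction was 0.25 ± 0.13, with an interval from -0.03 to 0.52. POR-null minus wild type on quercetin was 0.22 ± 0.09. None of these passed over all probe sets (limma, adjusted p = 0.512, 0.635, 0.521 and 0.671). The second probe set of Adh7 lay between 3.05 and 3.33 on all 12 arrays, where the lowest value of the whole table was 2.66. It differed by 0.06 ± 0.08 in POR-null and -0.08 ± 0.08 in wild type, so it did not show the quercetin difference of the first. The mean of both probe sets differed by 0.22 in POR-null. Stomach and squamous epithelium are tissues known for this enzyme. Scores of 9 of their genes were -0.06 to 0.01 in POR-null control and 0.00 to 0.10 in POR-null quercetin. In wild type the scores were -0.04 to 0.11 on control, where Adh7 was at 6.61 to 6.83, and -0.08 to 0.00 on quercetin. The part of such tissue in the Adh7 levels was not tested. Adh1 and Adh7 are neighbours on chromosome 3 with only 2 long non-coding RNA genes, 0610031O16Rik and Gm40156, between them in the gene table. On quercetin minus control in POR-null mice Adh1 was at -0.08 ± 0.30, and at 0.18 without POR-null control replicate 3.

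Aldh1a1, which makes retinoic acid from retinal, had quercetin differences of opposite sign in the genotypes. In wild type it was at 11.17, 10.82 and 10.85 on control and 11.32, 11.34 and 11.13 on quercetin. In POR-null mice it was at 11.36, 11.03 and 10.92 on control and 11.11, 10.62 and 10.82 on quercetin. The diets overlapped within each genotype, but on quercetin all 3 POR-null arrays lay under all 3 wild-type arrays. The means were 11.26 ± 0.12 (SD, n = 3) in wild-type quercetin, 11.10 ± 0.23 in POR-null control, 10.95 ± 0.19 in wild-type control and 10.85 ± 0.25 in POR-null quercetin, and the ranges of neighbours overlapped. Quercetin minus control was 0.32 ± 0.14 in wild type and -0.25 ± 0.14 in POR-null, and the interaction was -0.57 ± 0.20, with a 95% interval from -0.99 to -0.15 (limma, adjusted p = 0.416). POR-null minus wild type was 0.16 ± 0.14 on control and -0.41 ± 0.14 on quercetin. Without POR-null control replicate 1, the quercetin difference in POR-null was -0.13 and the genotype difference on control 0.03, and leaving out any single array kept the interaction between -0.70 and -0.44. No alternative brought these past the threshold.

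**Figure D3:**
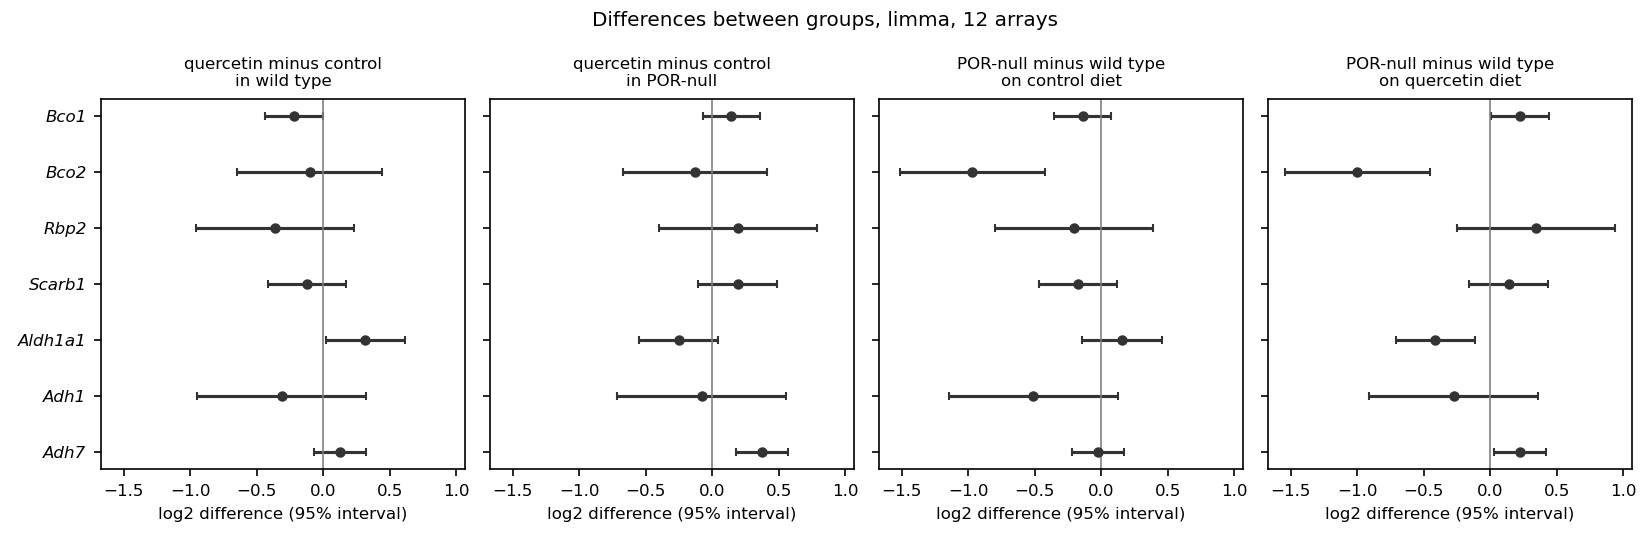
Log2 difference between groups (x axis) with its 95% interval from limma for the 7 genes (y axis) in the 4 comparisons. The intervals of Bco2 lie wholly below 0 for POR-null minus wild type on each diet, from -1.51 to -0.43 and from -1.54 to -0.46.

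Counted over the 10 probe sets, limma passed 0 in each of the 7 contrasts. Over all 22626 probe sets it passed 0.00442% for quercetin in wild type (1 probe set) and 0% in the other 6. At an unadjusted p under 0.05 there were 2 of 10 for quercetin in wild type, against 10.9% of all probe sets. There was 1 of 10 for quercetin in POR-null (6.65%) and 1 for genotype on control (10.1%), and there were 4 for genotype on quercetin (7.01%) and 3 for the interaction (10.3%). Each averaged effect had 1 (7.44% for quercetin and 7.12% for genotype). The 4 were Bco1, Bco2, Aldh1a1 and Adh7, with 2 higher and 2 lower in POR-null. Groups without overlap were found, counting either direction, in 1 of 10 for quercetin in wild type (a probe set of Scarb1, lower), against 13.4% of all probe sets, and in 1 for quercetin in POR-null (Adh7, higher), against 12.6%. They were found in 2 for genotype on control (Bco2 and Scarb1, lower), against 13.9%, and in 2 for genotype on quercetin (Adh7, higher, and Aldh1a1, lower), against 12.3%. As the genes were chosen with these contrasts known, nothing is read from the counts. The median difference of the 7 representatives was -0.12, 0.14, -0.18 and 0.14 in the 4 comparisons between groups, beside -0.02, 0.01, -0.02 and 0.01 over all probe sets. The quercetin comparison in wild type and the genotype comparison on control share the wild-type control arrays, and those of POR-null share the POR-null arrays in the same way.

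The 7 genes differed in how much they varied within groups. The residual SD within groups was 0.46 for Adh1, 0.43 for Rbp2 and 0.39 for Bco2, against a median of 0.11 over all probe sets. It was 0.20 for Aldh1a1 and Scarb1, 0.13 for Bco1 and 0.11 for Adh7. The difference of Bco2 was thus seen against a spread among the widest on the array, larger than that of 99.1% of probe sets. Among the 21 pairs of the 7 genes, Pearson r over the 12 arrays was 0.70 for Rbp2 with Adh1 and 0.50 for Bco2 with Adh1. It was -0.46 for Bco2 with Adh7 and 0.42 for Scarb1 with Adh7. Bco1 and Rbp2, whose promoter windows share the motif, had an r of 0.06, and of 0.28 without wild-type control replicate 2.

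The genes whose levels followed each member most closely over the 12 arrays were taken from 7212 or 7213 named genes with a mean level at or above the median. For Bco2 they were Rmdn3 (Pearson r of 0.90), Plpp3, a lipid phosphatase (0.90), and Aldh1l1, a folate enzyme (0.89), with values of 0.88 to 0.90 without wild-type control replicate 2. For Rbp2 they were Prap1 (0.98), Cda, cytidine deaminase (0.92), and Egln3, a prolyl hydroxylase (0.89), which without that array had 0.94, 0.79 and 0.66. For Adh1 they were Isoc1 (0.92), Alox5ap (0.89) and Cd24a (0.88), and without the array 0.82, 0.75 and 0.72. For Bco1 they were Pde1b (0.93), Zdhhc8 (0.93) and Rhd (0.92). For Aldh1a1 they were Naip6 (0.89), Ogt, which attaches N-acetylglucosamine to proteins (0.88), and Tex261 (0.86). For Adh7 they were Rasgrf1 (0.87), Tmem42 (0.86) and Zfpl1 (0.86), and for Scarb1 they were Mocos (0.81), Hps1 (0.78) and Nudt13 (0.77). These arrays share their groups and processing, and the highest among so many genes is given as a description.

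Further genes of the pathway were drawn from 7 lists with 80 names, of which 62 were measured. None passed limma's test in any of the 7 contrasts, in either direction. At an unadjusted p under 0.05 there were 7 of 62 for quercetin in wild type (11.3%, beside 10.9% of all probe sets) and 6 in POR-null (9.68%, beside 6.65%). There were 9 for genotype on control (14.5%, beside 10.1%), 8 for genotype on quercetin (12.9%, beside 7.01%) and 12 for the interaction (19.4%, beside 10.3%). The averaged effects had 5 for quercetin (8.06%, beside 7.44%) and 6 for genotype (9.68%, beside 7.12%). Their median differences were -0.05, 0.03, -0.04, 0.03 and 0.10 in the 4 comparisons and the interaction, beside -0.02, 0.02, -0.02, 0.02 and 0.03 over all genes.

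In the list of aldehyde dehydrogenases and an oxidase, Aldh1a7, a gene very similar to Aldh1a1, was lower in POR-null mice on both diets. Its activity on retinal was not measured. Its level was 8.41, 8.56 and 8.46 in wild-type control and 7.34, 8.06 and 7.90 in POR-null control, which did not overlap. On quercetin it was at 8.69, 8.19 and 8.29 in wild-type mice, and POR-null arrays lay at 8.07, 7.74 and 7.99, which did not overlap either. The differences were -0.71 ± 0.17 and -0.46 ± 0.17 (limma, adjusted p = 0.266 on control and 0.176 for the average of -0.58). Probes of such close relatives may detect each other's RNA, so the levels of Aldh1a1 and Aldh1a7 are uncertain as separate values. Their genotype differences had opposite signs on control (0.16 and -0.71) and the same sign on quercetin (-0.41 and -0.46). The other 4 members of that list, Aldh1a2 and Aldh1a3, which make retinoic acid in other cells, Aldh8a1 and the oxidase Aox1, differed by 0.12 or less in each of the 4 comparisons between groups.

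**Figure D4:**
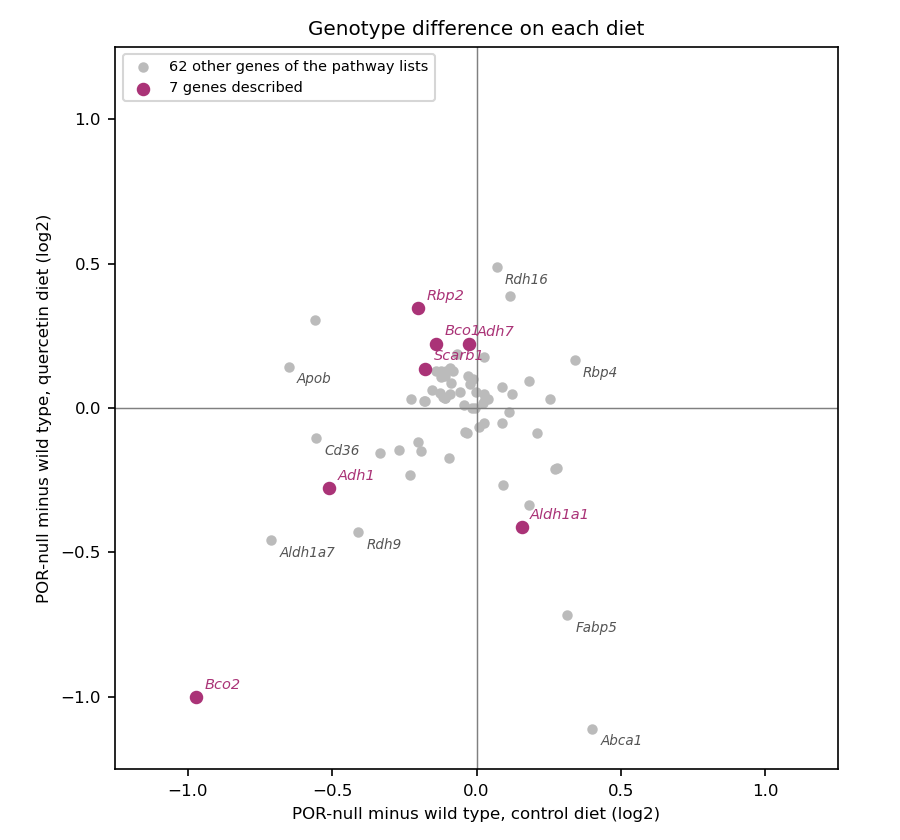
POR-null minus wild type in log2 units on the control diet (x axis) and on quercetin (y axis), from separate arrays, for the 7 genes (dark) and 62 other pathway genes (grey). Bco2, at -0.97 and -1.0, lies apart at the lower left, followed by Aldh1a7 at -0.71 and -0.46 and Rdh9 at -0.41 and -0.43.

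Of 18 measured oxidoreductases of retinol and retinal, 6 were higher and 12 lower in POR-null on control (median -0.04, beside -0.02 over all genes). On quercetin 10 were counted higher and 8 lower (0.03, beside 0.02), the lower including Rdh10, whose difference was 0. Averaged over diets 9 were counted higher and 9 lower, the higher including Rdh1, whose difference was 0. Rdh9, a retinol dehydrogenase family gene, differed by -0.41 ± 0.20 on control, but by -0.11 without POR-null control replicate 1, and by -0.43 ± 0.20 on quercetin. Rdh16, a microsomal retinol dehydrogenase, was at 5.91, 5.78 and 6.02 in wild-type quercetin and 6.59, 6.24 and 6.34 in POR-null quercetin, a difference of 0.49 ± 0.11 without overlap (limma, adjusted p = 0.34). On quercetin against control in POR-null it differed by 0.24 ± 0.11.

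Adh5, the ubiquitous class III alcohol dehydrogenase, was at 6.89, 6.80 and 6.66 in wild-type control and 7.14, 7.32 and 7.20 in wild-type quercetin. That difference of 0.44 ± 0.08 had the smallest p of the list in wild type (limma, adjusted p = 0.144), against -0.05 ± 0.08 in POR-null and an interaction of -0.48 ± 0.11 (adjusted p = 0.342). Its genotype difference was 0.27 ± 0.08 on control and -0.21 ± 0.08 on quercetin. Rdh5, an 11-cis retinol dehydrogenase, differed by -0.28 ± 0.08 on quercetin in wild type and -0.14 ± 0.08 in POR-null.

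Among 8 retinoid binding and transport proteins, 4 were counted higher and 4 lower on quercetin in each genotype. In wild type the 4 higher included Rbp3, whose difference was 0. Rbp3, the retinoid carrier of the eye's interphotoreceptor matrix, was at 6.35, 6.15 and 6.25 in POR-null control and 6.59, 6.49 and 6.47 in POR-null quercetin, a difference of 0.27 ± 0.08 without overlap (limma, adjusted p = 0.662). Crabp2, a cellular retinoic acid binding protein, differed by 0.18 ± 0.09 in that comparison. Rbp4, the plasma retinol carrier, differed by 0.34 ± 0.09 between genotypes on control and 0.17 ± 0.09 on quercetin, and Rbp3 by -0.14 ± 0.08 on control. Fabp5, which can carry retinoic acid, differed by 0.71 ± 0.22 for quercetin in wild type and by -0.72 ± 0.22 for genotype on quercetin, with overlapping ranges. Rbp7, a cellular retinol binding protein, differed by -0.32 ± 0.21 for quercetin in wild type.

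Of 7 genes of retinyl ester formation and hydrolysis, 6 were higher on quercetin in POR-null (median 0.13, beside 0.02 over all genes) and 3 in wild type (-0.07, beside -0.02), and none had an unadjusted p under 0.05 in either. Lrat, lecithin retinol acyltransferase, differed by 0.13 ± 0.07 in POR-null, at levels of 3.42 to 3.71 on all 12 arrays, where the table's lowest value was 2.66. Its genotype difference was -0.11 ± 0.07 on control and 0.11 ± 0.07 on quercetin. The carboxylesterase Ces1d differed by 0.25 ± 0.15 for quercetin in POR-null and 0.21 ± 0.15 in wild type. The hormone-sensitive lipase Lipe differed by -0.18 ± 0.09 for quercetin in wild type, -0.10 without wild-type control replicate 2, and by 0.18 ± 0.09 for genotype on quercetin. Dgat1, an acyltransferase of triglyceride and retinyl ester synthesis, differed by -0.18 ± 0.10 for genotype on control, but by -0.06 without wild-type control replicate 2. Cyp26a1, which breaks down retinoic acid, differed by 0.17 ± 0.08 for quercetin in POR-null, -0.07 ± 0.08 in wild type, and -0.09 ± 0.08 and 0.14 ± 0.08 for genotype on control and quercetin.

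Of 12 receptors and targets, 5 were higher and 7 lower on quercetin in each genotype. Nrip1, a nuclear receptor corepressor, differed by -0.31 ± 0.08 for quercetin in wild type (limma, adjusted p = 0.269) and by -0.23 ± 0.08 for genotype on control. The retinoid X receptor Rxra, the shared partner of nuclear receptors, differed by -0.23 ± 0.10 for quercetin in POR-null and 0.07 ± 0.10 in wild type. Ncoa1, a nuclear receptor coactivator, differed by -0.20 ± 0.10 for quercetin in POR-null and 0.25 ± 0.10 for genotype on control. Rarres2, a retinoid-responsive gene that encodes chemerin, differed by -0.16 ± 0.09 for quercetin in wild type and 0.19 ± 0.09 for genotype on quercetin, where the receptor Rarb differed by 0.09 ± 0.08.

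Of 11 uptake and lipoprotein partners, 3 were higher and 8 lower on quercetin in wild type, and 4 were higher and 7 lower in POR-null. Cd36, a scavenger receptor related to Scarb1, was at 4.30, 4.85 and 4.02 in wild-type control and 3.95, 3.68 and 3.87 in POR-null control. These levels are low, as the table's lowest value was 2.66. That difference was -0.56 ± 0.16, but -0.33 without wild-type control replicate 2, and on quercetin it was -0.10 ± 0.16. Quercetin minus control for Cd36 in POR-null was 0.37 ± 0.16. The lipid exporter Abca1 differed by -1.11 ± 0.31 for genotype on quercetin, where POR-null arrays at 5.77, 5.66 and 5.54 lay under wild-type arrays at 6.79, 6.58 and 6.93 (limma, adjusted p = 0.47). Its quercetin difference was 0.73 ± 0.31 in wild type and -0.78 ± 0.31 in POR-null, the latter -0.48 without POR-null control replicate 2. Abcg5, a subunit of the sterol exporter of the enterocyte, differed by -0.34 ± 0.15 for genotype on quercetin. Apob, the chylomicron scaffold, differed by -0.60 ± 0.24 for quercetin in wild type. Its genotype difference on control was -0.65, and both comparisons use the wild-type control arrays, at 11.29, 11.03 and 11.13. Apoa4, a chylomicron apolipoprotein that is also among the 13 proximal genes, differed by -0.56 ± 0.20 for genotype on control, and by -0.34 without wild-type control replicate 2. The values without an array were computed for these pathway genes after the data had been seen.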

How the data were processed

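RNA from scraped ileal mucosa was hybridised to Affymetrix 430A arrays, per the labels. The table the authors deposited holds a log2 value for every probe set on each array. MAS5 and RMA are named in the submitters' processing notes, without version or role, and how the values were normalized is not given in the sources used here. Values were used as deposited. The 64 array controls were left out, and 22626 probe sets were tested. Platform symbols were updated by gene ID through the GRCm38.p6 gene table, used for names and gene order only (20351 of 20380 probe sets with 1 symbol matched).

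With limma 3.58.1 (R 4.3.3; lmFit and eBayes), the 4 group means were estimated over the 12 arrays together (8 residual and 5.59 prior degrees of freedom), checked on simulated data, with Benjamini-Hochberg adjustment over all probe sets. The number of arrays limits the precision. The members, lists and contrasts were chosen with earlier results of these data known. Of each pathway list, the 2 genes with the smallest p in each comparison between groups were named, and for each member the 3 genes with the highest Pearson r. Replicate numbers did not pair arrays: deviations from group means correlated by -0.18 to 0.16 over 18 same-numbered pairs, 3 of them over 0.1. Figures used Python 3.11.15 and matplotlib 3.10.9.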

Additional observations from a re-analysis of the deposited data

How the results depend on the processing

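Of 39 member differences recomputed (the averaged effects for Bco2 and Adh7 only), none passed the threshold in any alternative except that of Bco2 for the averaged genotype effect without POR-null quercetin replicate 3 (limma, adjusted p = 0.0453; 0.13 with all arrays). Of the 769 recomputed values, 764 moved by less than the residual SD of the gene and 5 by more; 3 of the 5 were Rbp2 without wild-type control replicate 2, and 2 were Adh7 with the mean of its probe sets. The counts over all probe sets were low and moved more. For quercetin in wild type the count of 1 became 7 without the lower quartile of mean levels, 7 with trend and robust eBayes, 5 with the replicate block, 2 with only the arrays compared, 0 with the mean of a gene's probe sets, and 1 to 59 leaving out an array (59 without wild-type control replicate 1). The other counts were 0. Trend and robust gave 1 for genotype on control, 5 for genotype on quercetin, 2 for the interaction, 1 for averaged quercetin and 4 for averaged genotype. The replicate block gave 2 for genotype on quercetin, 3 for the interaction and 2 for averaged genotype; 5 of 12 arrays correlated best with an array of their own number. Only the arrays compared gave 2 for genotype on quercetin. Averaged quercetin had 2 with median centring, 1 without the lower quartile and 1 with array weights, which gave 4 for averaged genotype. Leaving out an array gave 0 to 15 for genotype on control (15 without wild-type control replicate 1), 0 to 1 for genotype on quercetin, 0 to 9 for the interaction (9 without wild-type control replicate 1), 0 to 1 for averaged quercetin and 0 to 6 for averaged genotype (6 without wild-type control replicate 2). Quercetin in POR-null stayed at 0 in all 20 alternatives. The number of arrays, 3 a group, limits what these differences can show.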
